A study of Mus musculus with 50 samples.

Results

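The genes described are 10 transcripts tied to the p53 pathway and to growth arrest: the 3 Gadd45 paralogs (Gadd45a, Gadd45b, Gadd45g), the cell cycle inhibitor Cdkn1a, and the p53-linked genes Trp53inp1, Trp53inp2, Ccng1, Mdm2, Hipk1 and Hipk2. They were picked by symbol, and all 10 were found among the 55414 gene rows of the quadriceps table, the 55414 of the perigonadal fat table at 1 h and the 55401 of the perigonadal fat table at 6 h. The list was proposed with the differences between genotypes in these libraries already known, so those differences are given for the 10 genes as descriptions, without p-values.

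Messenger RNA was read from its 3′ ends in 50 libraries of male mice carrying the hM3Dq receptor (hM3DGq in the labels), an engineered receptor that excites a cell when its ligand clozapine N-oxide (CNO) binds. TG denotes mice positive for Gfral Cre; Gfral encodes the hindbrain receptor for the stress hormone GDF15. WT denotes mice negative for Cre. Every mouse in either genotype received CNO at 1 mg/kg, so WT mice control for CNO but no group without CNO is compared. The sets were quadriceps muscle of clamped mice (10 TG, 10 WT), perigonadal white adipose tissue (pgWAT) taken 1 h after CNO (9 TG, 9 WT) and pgWAT taken 6 h after CNO (6 TG, 6 WT). The sources used here give neither ages nor details of the Cre and hM3Dq alleles. The labels number replicates without saying that each is a separate mouse, so errors and p-values measure the spread between these libraries.

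GADD45 proteins are small, inducible stress sensors without enzyme activity of their own: they bind the kinase MAP3K4 upstream of the JNK and p38 kinases, and they bind the p21 protein, PCNA and the CDK1 kinase. p21, the product of Cdkn1a, inhibits cyclin-dependent kinases and is the classical target through which p53 halts the cell cycle. Several of the other genes form loops around p53. MDM2 marks p53 for degradation and is itself a p53 target, and cyclin G1 (Ccng1) is a p53 target that acts on MDM2. HIPK2 phosphorylates p53, and TRP53INP1 takes part in p53 responses. Both TRP53INP proteins act in autophagy. Gadd45 genes and Cdkn1a also respond to stress hormones, cytokines and fasting signals without p53, Gadd45a and Cdkn1a being known in skeletal muscle for their induction during atrophy.

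The stretches of genome before the start sites of the 3 Gadd45 paralogs and of Cdkn1a are shown because these 4 genes moved differently from each other across the sets. RefSeq windows on GRCm38.p6 were available for 9 of the 10 genes. Each line gives up to 250 bases before the start, without bases that lie inside the GENCODE gene, and 5′ to 3′ on the strand of the gene. Capitals mark matches, on either strand, to the TATA, E-box and CCAAT motifs spelled out below or to the 10-letter p53 consensus unit.
Gadd45a, chr6:67037458-67037657, minus strand: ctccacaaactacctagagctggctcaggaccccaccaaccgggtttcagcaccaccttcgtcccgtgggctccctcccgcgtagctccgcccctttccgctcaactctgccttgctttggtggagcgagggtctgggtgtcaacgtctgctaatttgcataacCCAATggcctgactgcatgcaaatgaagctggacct
Gadd45b, chr10:80929841-80930072, plus strand: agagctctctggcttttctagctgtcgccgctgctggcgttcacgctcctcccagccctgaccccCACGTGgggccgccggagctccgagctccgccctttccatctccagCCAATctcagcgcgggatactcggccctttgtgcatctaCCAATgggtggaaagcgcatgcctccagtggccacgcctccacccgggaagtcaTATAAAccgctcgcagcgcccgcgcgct
Gadd45g, chr13:51846425-51846674, plus strand: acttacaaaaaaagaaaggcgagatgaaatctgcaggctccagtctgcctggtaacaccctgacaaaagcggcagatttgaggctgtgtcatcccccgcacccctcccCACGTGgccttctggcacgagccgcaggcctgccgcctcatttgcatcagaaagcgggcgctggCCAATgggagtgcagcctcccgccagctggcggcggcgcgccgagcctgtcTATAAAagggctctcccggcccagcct
Cdkn1a, upstream of 2 listed starts, chr17:29090729-29090975, plus strand: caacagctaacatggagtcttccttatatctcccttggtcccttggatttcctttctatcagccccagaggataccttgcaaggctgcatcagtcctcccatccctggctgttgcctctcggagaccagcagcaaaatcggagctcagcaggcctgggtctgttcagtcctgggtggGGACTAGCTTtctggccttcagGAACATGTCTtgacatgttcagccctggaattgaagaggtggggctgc

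TATAAA, the usual form of a TATA box, lay 46 to 41 bases before the Gadd45b start and 27 to 22 bases before the Gadd45g start, and in the window of no other gene of the 10, against 12.4% of 32851 RefSeq promoter windows. CACGTG, an E-box, was likewise matched in the windows of Gadd45b and Gadd45g, against 6.02% of all windows. CCAAT was matched in 7 of the 9 genes, against 33.8% of windows. The p53 unit was matched in 4 genes, Gadd45a, Cdkn1a, Ccng1 and Mdm2, against 7.13% of windows. In Cdkn1a it fell at 73 to 64 and 51 to 42 bases before the upstream start, and the window of the other listed start had 0 matches to any motif. In Gadd45a it fell 40 to 31 bases before the start, in bases not printed here. The 9 genes have 12 windows and a gene counts as matched through any of its windows, whereas the shares are per window. TGACGTCA, the cAMP response element, was matched in Trp53inp2 (1.55% of windows), GTAAACA, a forkhead motif, in Mdm2 (3.17%), and AGAACA, part of the glucocorticoid response element, in none of the 9 genes (16.1%). All 250 bases of the Trp53inp2 window lie inside its GENCODE gene. The motifs were chosen after the expression values were known, none of the matches overlapped another, and a match describes letters, not binding.

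Depth ranged between 959980 and 2613672 gene counts per quadriceps library, 976610 and 4852560 per 1 h pgWAT library, and 9150496 and 12883462 per 6 h pgWAT library. Levels below are in CPM, a gene's counts relative to all counts of tested genes in that library after TMM scaling. A level of 3 counts was instead set against all gene counts of each library, without TMM scaling. On that scale it corresponds to 1.15 to 3.13, 0.618 to 3.07 and 0.233 to 0.328 CPM in these sets. These ranges are therefore not on the scale of the levels below. Adipocyte markers (Adipoq and the like) summed to 27800 to 34300 CPM in TG pgWAT and 27700 to 35400 CPM in WT pgWAT at 6 h, and skeletal muscle markers to 34800 to 42000 CPM in TG quadriceps and 28300 to 50300 CPM in WT quadriceps, so the tissue labels match their markers. Some libraries stood apart through transcripts of other tissues or of stress: liver transcripts reached 9660 CPM in TG and 2320 CPM in WT pgWAT at 1 h and 1460 CPM in TG pgWAT at 6 h, and inducible heat shock transcripts reached 2850 CPM in WT quadriceps. Leaving out libraries more than 5 times over the median of their set for such a sum removed 3 quadriceps, 9 pgWAT 1 h and 1 pgWAT 6 h libraries. Calls that were lost without those libraries are named beside their values. In bulk tissue, fewer cells of a type and less RNA per cell cannot be told apart.

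In quadriceps, 4 of the 10 genes were higher in TG and none was lower at an adjusted p under 0.05 from edgeR's quasi-likelihood test over 8070 genes: Gadd45b, Cdkn1a, Trp53inp1 and Gadd45g. Over all genes tested 2.03% passed, made up of 1.09% with TG higher and 0.942% with TG lower, and since this contrast chose the genes nothing is read from their count. Their median log2 difference was 0.05, beside 0.00 over all genes. No gene of the 10 separated the genotypes without overlap, which 0.173% of all genes did with TG above and 0.124% with TG below.

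Gadd45b, the paralog best known as an NF-kB and TGF-beta response gene, had 27.5, 49.7 and 69.1 CPM (lowest, median and highest) in TG quadriceps, against 9.97, 19.9 and 42.8 CPM in WT quadriceps. All 10 TG libraries were above the WT median and 6 were above every WT library. The log2 difference was 1.12 ± 0.21 (standard error, SE), 2.18-fold. Cdkn1a had 93.8, 149 and 195 CPM in TG quadriceps, against 53.9, 81.3 and 129 CPM in WT quadriceps. Its log2 difference was 0.80 ± 0.16, and 8 TG libraries exceeded every WT library.

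Trp53inp1, a p53-induced nuclear protein that also acts in autophagy, had 55.2, 72.5 and 92.7 CPM in TG quadriceps, against 38.1, 45.3 and 58.4 CPM in WT quadriceps. In this gene 9 of 10 TG libraries exceeded every WT library, and the log2 difference was 0.68 ± 0.10. Gadd45g, a paralog that cytokines and growth arrest induce, had 230, 277 and 406 CPM in TG quadriceps, against 143, 210 and 323 CPM in WT quadriceps. All 10 TG libraries were above the WT median, the groups overlapped, and the log2 difference was 0.46 ± 0.12.

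Gadd45a did not follow its paralogs in quadriceps: it had 37.8, 55.6 and 63.7 CPM in TG, against 38.9, 48.0 and 87.6 CPM in WT, a log2 difference of -0.05 ± 0.13, or 0.09 without the libraries in doubt. The remaining genes, Trp53inp2, Ccng1, Mdm2, Hipk1 and Hipk2, had log2 differences between -0.13 for Mdm2 and 0.05 for Trp53inp2 and Hipk2, none past the threshold. Mdm2 had 150 ± 8.89 CPM in TG and 164 ± 26.0 CPM in WT (mean ± SD, n = 10 each), and Ccng1 658 ± 46.4 and 682 ± 50.4 CPM. Inducible heat shock transcripts spanned 36.3 to 150 CPM in TG and 50.4 to 2850 CPM in WT quadriceps, with WT replicates 2 and 10 highest. Without these and TG replicate 7, which had 3.99 CPM of liver transcripts, the 4 genes were again past the threshold, with log2 differences of 1.30 for Gadd45b, 0.98 for Cdkn1a, 0.68 for Trp53inp1 and 0.55 for Gadd45g. Gadd45b, Cdkn1a and Trp53inp1 were past the threshold in all 20 fits that left out 1 library; Gadd45g was in 15, and missed it without WT replicate 4, 7 or 10 or TG replicate 6 or 9.

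**Figure D1:**
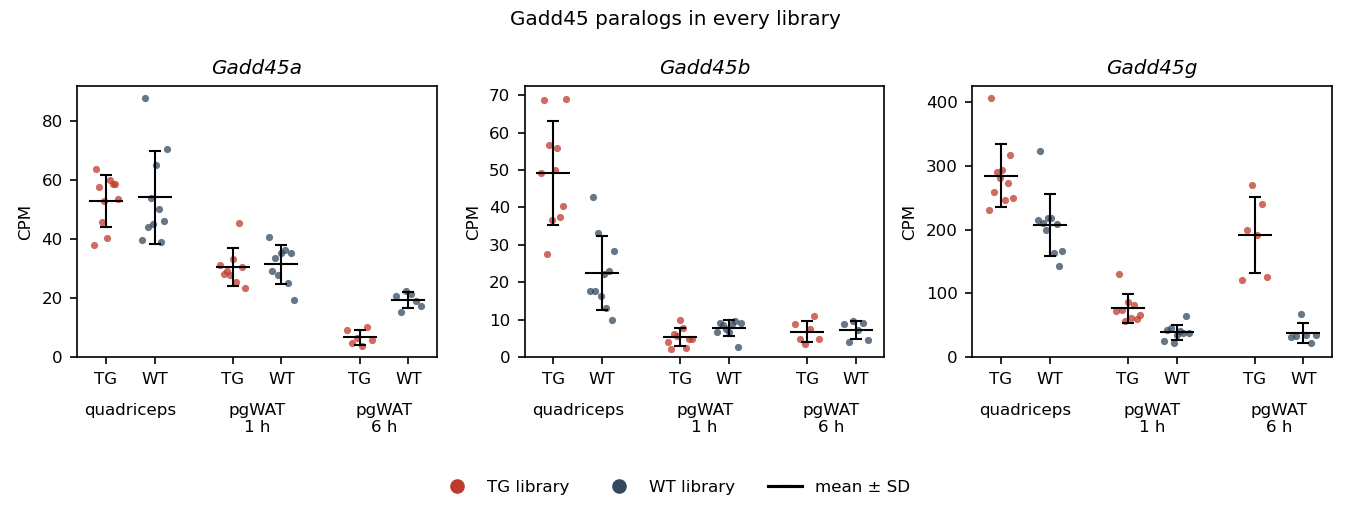
Level of the 3 Gadd45 paralogs in each library, in CPM, with TG left of WT in each of the 3 sets; points are libraries and bars are means with SD. At 6 h the TG libraries of Gadd45g lie above every WT library, and those of Gadd45a below.

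In pgWAT 1 h after CNO, 1 of the 10 genes, Gadd45g, was past the threshold, higher in TG, against 0.0722% of 11087 genes tested (0.0541% with TG higher and 0.018% with TG lower). The median log2 difference of the 10 genes was 0.04 and that of all genes 0.01. Gadd45g had 55.9, 71.5 and 130 CPM in TG pgWAT, against 22.4, 37.9 and 63.6 CPM in WT pgWAT. All 9 TG libraries were above the WT median, 6 were above every WT library, and the log2 difference was 0.96 ± 0.18, 1.94-fold. None of the 10 genes separated the genotypes fully, which 0.018% of all genes did with TG above and 0.018% with TG below. The call depended on single libraries: Gadd45g was past the threshold in 7 of the 18 fits that left out 1 library, with log2 differences of 0.84 to 1.07, and was lost without any of WT replicates 1, 2, 4, 5, 6, 7 and 9 or TG replicates 1, 3, 5 and 7. Without the 9 libraries in doubt, with 6 TG and 3 WT libraries left, the difference was 1.39 and not past the threshold.

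Markers of the mesothelium, the cell layer on the fat surface, lay higher in TG at 1 h beside this difference: the 5 markers summed to 40.2, 107 and 367 CPM (lowest, median and highest) in TG and 18.1, 53.5 and 201 CPM in WT. All 5 had a log2 difference above 0, with a median of 0.84 and 0 past the threshold. Wt1 had 1083 counts over the TG and 448 over the WT libraries, and Upk3b 876 and 413. The 2 duct epithelium markers, Lrp2 and Cldn10, which with liver transcripts put libraries in doubt, summed to 2.68, 15.9 and 317 CPM in TG and 2.39, 16.0 and 244 CPM in WT, with a median log2 difference of 0.68 and 0 past the threshold. The part of these markers in the Gadd45g difference was not tested.

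Cdkn1a had 83.9, 155 and 253 CPM in TG pgWAT at 1 h, against 70.1, 158 and 203 CPM in WT pgWAT, a log2 difference of 0.04 ± 0.20. Gadd45a had 23.5, 29.1 and 45.4 CPM in TG and 19.4, 33.7 and 40.6 CPM in WT, a difference of -0.04 ± 0.14. Both pairs of groups overlapped almost fully. Gadd45b rested on few reads, 2 to 24 counts per TG library and 4 to 28 per WT library, with a log2 difference of -0.53 ± 0.25. Trp53inp1 had 37.8, 53.4 and 147 CPM in TG and 43.4, 52.3 and 69.2 CPM in WT; its highest library, TG replicate 3, was also the one with 9660 CPM of liver transcripts. The log2 difference of Trp53inp1 was 0.19 ± 0.21 with that library, -0.08 without it and -0.07 without the libraries in doubt. Cdkn1a had -0.12 and Trp53inp2 -0.02 without the libraries in doubt, so the sign turned in these genes too. The other 5 genes had differences between -0.20 for Ccng1 and 0.08 for Trp53inp2.

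In pgWAT 6 h after CNO, 7 of the 10 genes were past the threshold. Gadd45g, Cdkn1a, Trp53inp1, Hipk1, Hipk2 and Mdm2 were higher in TG and Gadd45a was lower. Over all 14359 genes tested 14.4% passed, 6.88% with TG higher and 7.54% with TG lower. The median log2 difference of the 10 genes was 0.44, beside 0.00 over all genes. In 4 of them, Gadd45g, Cdkn1a, Trp53inp1 and Hipk1, every TG library lay above every WT library, as in 3.93% of all genes; in Gadd45a every TG library lay below, as in 3.73%.

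Gadd45g had 121, 196 and 270 CPM in TG pgWAT, against 22.2, 33.8 and 68.2 CPM in WT pgWAT. The lowest TG library was above the highest WT library, and the log2 difference was 2.36 ± 0.30, 5.12-fold. Gadd45a, in contrast, had 3.78, 6.10 and 10.3 CPM in TG, from 47 to 119 counts per library, against 15.1, 19.8 and 22.2 CPM in WT, from 174 to 260 counts. The log2 difference was -1.54 ± 0.20, so TG had 0.344 times the WT level. Gadd45b had 3.41, 6.16 and 10.9 CPM in TG and 4.08, 7.97 and 9.61 CPM in WT, a log2 difference of -0.09 ± 0.28. The 3 paralogs thus had a positive, a negative and a near-zero difference in the same libraries.

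Cdkn1a had 261, 282 and 421 CPM in TG pgWAT at 6 h, against 31.8, 82.1 and 114 CPM in WT pgWAT. Every TG library was above every WT library, and the log2 difference was 2.07 ± 0.33, 4.19-fold. Trp53inp1 had 61.9, 71.2 and 76.2 CPM in TG, against 16.8, 20.7 and 22.5 CPM in WT, a log2 difference of 1.78 ± 0.08. Hipk1, a nuclear kinase of the same family as HIPK2, had 410, 450 and 504 CPM in TG, against 120, 134 and 163 CPM in WT, a log2 difference of 1.71 ± 0.08. The spread within each genotype was small beside the gap in both genes.

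Hipk2 had 139, 157 and 177 CPM in TG pgWAT at 6 h, against 106, 125 and 150 CPM in WT pgWAT, a log2 difference of 0.32 ± 0.09. Mdm2 had 43.6, 49.0 and 60.3 CPM in TG, against 36.0, 39.5 and 47.9 CPM in WT, a difference of 0.31 ± 0.09. In both genes all 6 TG libraries exceeded the WT median while the groups overlapped. Mdm2 was past the threshold in 5 of the 12 fits that left out 1 library, and missed it without WT replicate 1, 2, 4 or 6 or TG replicate 1, 3 or 5; Hipk2 and the 5 genes without overlap were past it in all 12. Trp53inp2, a nuclear cofactor that moves to autophagosomes, had 438, 536 and 622 CPM in TG and 228, 323 and 631 CPM in WT. Its difference of 0.57 ± 0.22 was not past the threshold except in the fit without WT replicate 3, which held the highest WT level. Ccng1 had 107, 121 and 177 CPM in TG and 89.8, 101 and 135 CPM in WT, a difference of 0.25 ± 0.13 that did not pass.

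**Figure D2:**
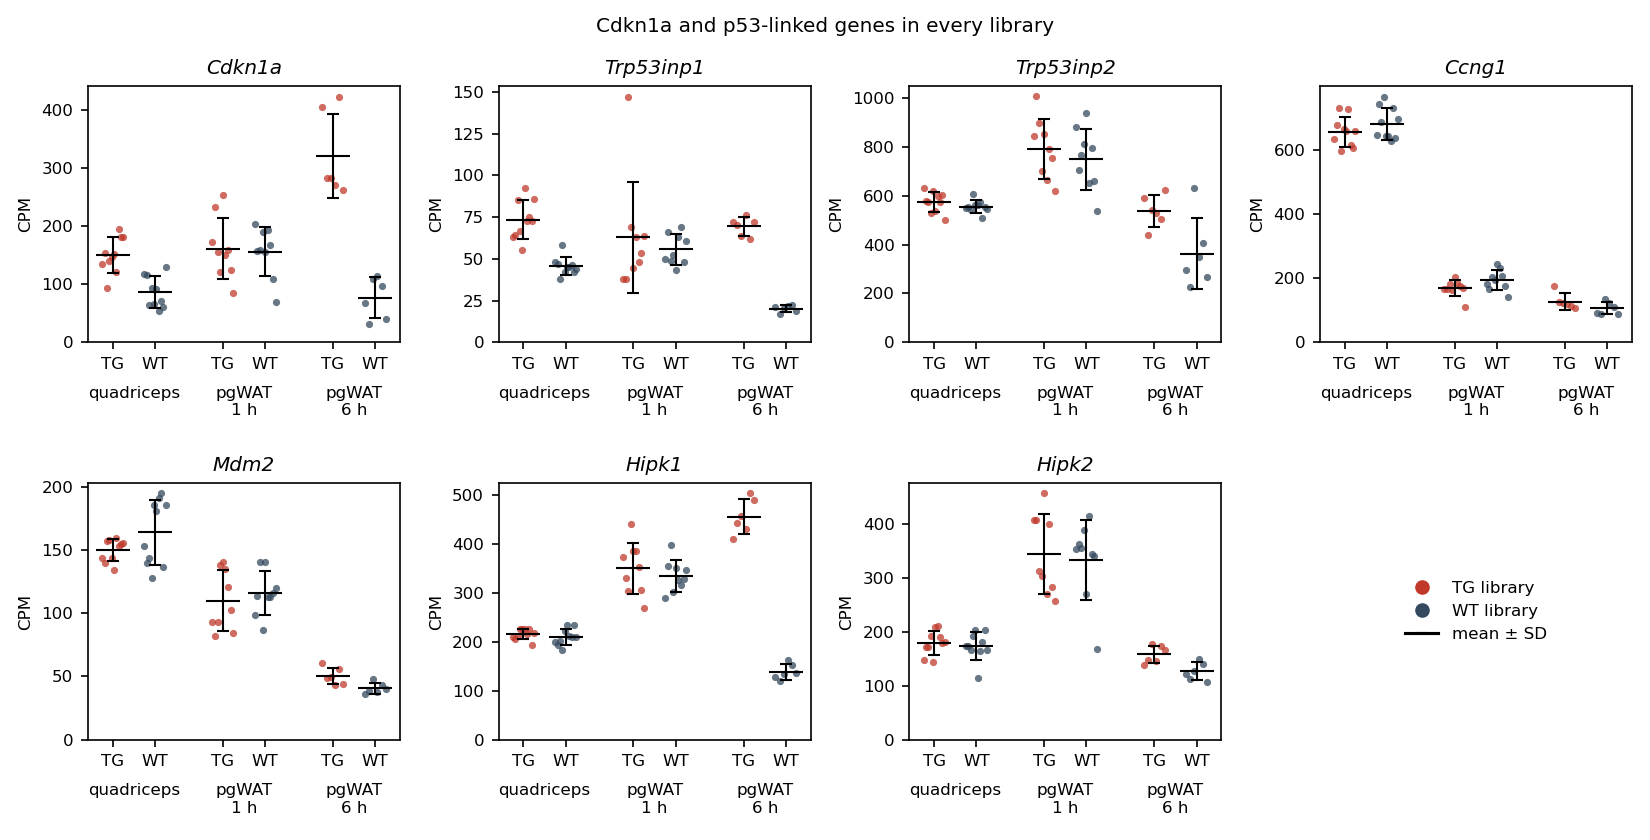
Level of Cdkn1a, Trp53inp1, Trp53inp2, Ccng1, Mdm2, Hipk1 and Hipk2 in each library, in CPM, with TG left of WT in each set; points are libraries and bars are means with SD. Cdkn1a, Trp53inp1 and Hipk1 separate the genotypes in pgWAT at 6 h, and Ccng1 overlaps in every set.

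Markers of other cells in pgWAT at 6 h were examined beside these differences. The 5 skeletal muscle markers summed to 60.4 to 118 CPM in TG and 19.8 to 48.9 CPM in WT, without overlap; most of it was Acta1, skeletal actin, with 5536 counts over the TG libraries and 2288 over the WT libraries. Ckm, muscle creatine kinase, had 4 counts over the TG libraries and 10 over the WT libraries, and Myh4, a fast myosin, 2 and 27. Myh1 and Tnnt3 went the other way, Myh1 with 24 counts in TG and 14 in WT and Tnnt3 with 65 and 53. Summed macrophage markers were 418 to 723 CPM in TG and 354 to 495 CPM in WT, and 1 of 5, Cd163, was past the threshold. Summed endothelial markers were 476 to 718 CPM in TG and 481 to 587 CPM in WT, and 1 gene, Tek, was lower. Liver transcripts spanned 47.6 to 1460 CPM in TG and 42.3 to 81.2 CPM in WT; without TG replicate 2, the library at 1460 CPM, the log2 differences were 2.34 for Gadd45g, 2.10 for Cdkn1a, 1.78 for Trp53inp1, 1.72 for Hipk1 and -1.45 for Gadd45a. The part of the other markers in the differences was not tested.

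For 4 of the 10 genes GENCODE vM21 lists a gene on the opposite strand, and the strand setting of the counting is not given in the sources used here. Gadd45a (chr6:67035096-67037457, GRCm38) is overlapped by the antisense gene E230016M11Rik, which at 6 h had 166 counts over the TG and 153 over the WT libraries while Gadd45a had 440 and 1293. Hipk2 (chr6:38694390-38876165) is overlapped by Tbxas1, thromboxane synthase, with 970 and 999 counts at 6 h. Inside Hipk1 (chr3:103739815-103791563) the same-strand models Gm43149 and Gm43387 had 675 and 583 counts in TG and 141 and 72 counts in WT at 6 h. On the opposite strand Gm10964 had 0 counts in both genotypes and Gm15886 had 3 in TG and 0 in WT. Hipk1 itself had 30351 and 9333. Cdkn1a (chr17:29090976-29100727) is overlapped by AC167363.2, which has no row in the tables. Reads of such pairs cannot be told apart with certainty.

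**Figure D3:**
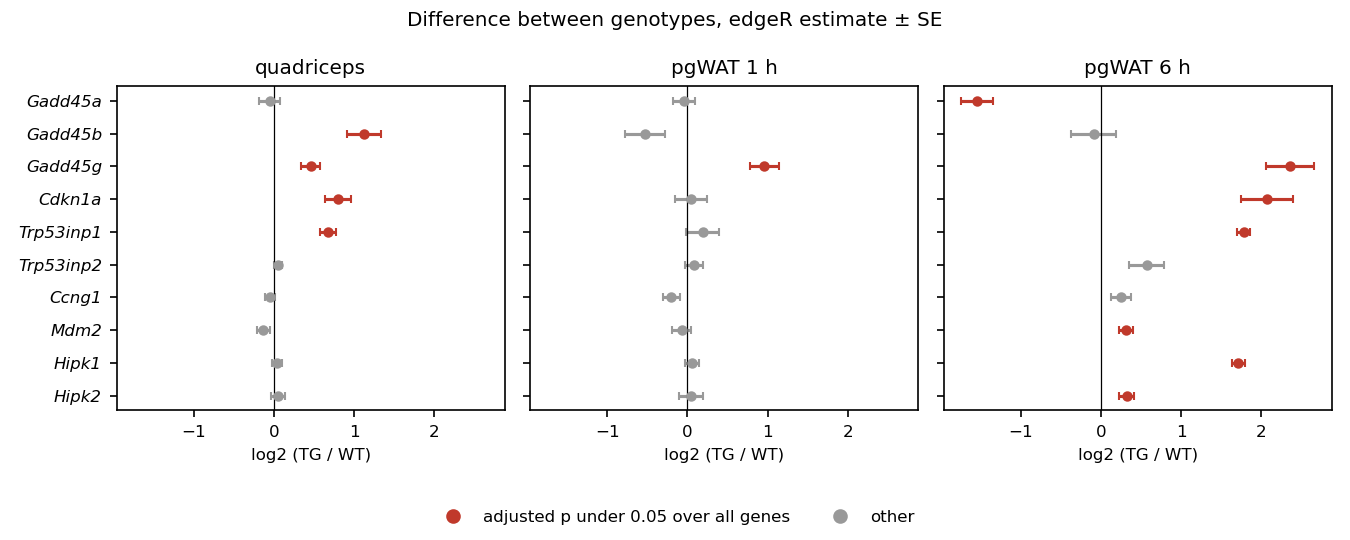
Log2 difference, TG over WT, of each of the 10 genes in the 3 sets, with bars for the SE of edgeR's fit; red points are past the threshold and grey points are not. Gadd45a is near 0 in quadriceps and at 1 h and at -1.54 at 6 h, and Gadd45g is above 0 in all 3 sets.

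Across the sets, Gadd45g was past the threshold in all 3, with log2 differences of 0.46 in muscle, 0.96 in fat at 1 h and 2.36 in fat at 6 h. With 1 library left out, Gadd45g passed the threshold in 15 of 20 quadriceps fits and 7 of 18 fits at 1 h. Cdkn1a and Trp53inp1 were past it in quadriceps (0.80 and 0.68) and in pgWAT at 6 h (2.07 and 1.78), with 0.04 and 0.19 at 1 h, whose signs turned without the libraries in doubt. Gadd45b was past it in quadriceps alone, and Gadd45a, Hipk1, Hipk2 and Mdm2 in pgWAT at 6 h alone. Whether the differences themselves differ between sets was not tested, and kit and depth go with time in pgWAT.

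The p53 pathway outside the 10 genes was described with 4 lists, 91 genes in all: 38 p53 targets, 22 regulators of p53, 14 genes of the GADD45 and stress kinase route and 17 cyclins, cyclin-dependent kinases and inhibitors. The lists were chosen with earlier results of these data known, so their counts and adjusted p-values are descriptions, not an independent check. In quadriceps 0 of 53 tested were past the threshold by edgeR and 0 by DESeq2, with 2 at an unadjusted p under 0.05, and in pgWAT at 1 h 0 of 70 by edgeR and 0 by DESeq2, with 4. In pgWAT at 6 h 20 of 85 tested (23.5%) were past it, 9 higher and 11 lower in TG, beside 14.4% of all genes, and the median log2 difference was -0.02. This count moved with single libraries: it was 12 without WT replicate 1 and 13 without TG replicate 2, the library with the liver transcripts. Of the 20 genes, 10 were past the threshold in all 12 fits that left out 1 library: Sesn1, Ei24, Mapk8, Map2k4, Ccng2, Ccne2, Map3k4, Ccnd1, Bbc3 and Xpc. The other 10 missed it in at least 1 such fit, and 7 of these, Fas, Ercc5, Plk2, Trp53, Chek2, Mapk14 and Cdkn2d, missed it without TG replicate 2.

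Of 37 p53 targets tested at 6 h, 4 were higher and 3 lower in TG, with a median log2 difference of -0.08. Sesn1, sestrin 1, an inhibitor of mTORC1 signalling, averaged 49.1 ± 5.51 CPM in TG and 30.2 ± 3.35 CPM in WT (SD, n = 6 each), a log2 difference of 0.70 ± 0.09 (edgeR adjusted p = 3.75e-05). Ei24, an endoplasmic reticulum protein of autophagy, averaged 66.7 ± 7.64 and 51.4 ± 3.20 CPM in TG and WT (0.38 ± 0.08, edgeR adjusted p = 0.00295). Both had every TG library above every WT library, while Fas, the death receptor (0.28 ± 0.09, edgeR adjusted p = 0.0499), and Ercc5, a repair nuclease (0.25 ± 0.08, edgeR adjusted p = 0.0499), lay at the threshold. Of the 12 fits that left out 1 library, Fas passed in 4 (those without WT replicate 3 or 4 or TG replicate 4 or 6) and Ercc5 in 2 (those without WT replicate 4 or TG replicate 1), and without TG replicate 2 their edgeR adjusted p was 0.0669 and 0.0801. Bbc3, which encodes the pro-apoptotic protein PUMA, averaged 8.99 ± 1.90 CPM in TG and 15.2 ± 2.63 CPM in WT (-0.75 ± 0.15, edgeR adjusted p = 0.00259). Xpc, which recognises damaged DNA, was lower in TG, with a difference of -0.34 ± 0.07 (edgeR adjusted p = 0.00328). The kinase Plk2 had -0.57 ± 0.18 (edgeR adjusted p = 0.0441), passed in 4 of the 12 fits (those without WT replicate 2 or 4 or TG replicate 1 or 5) and had -0.49 without TG replicate 2 (edgeR adjusted p = 0.0947). Bax, a classical pro-apoptotic target, averaged 16.8 ± 3.0 and 17.3 ± 2.19 CPM in TG and WT (-0.04, edgeR adjusted p = 0.890), and Phlda3 182 ± 39.6 and 194 ± 45.5 CPM (-0.10, edgeR adjusted p = 0.787). Members of the p53 target list therefore differed in both directions, with most not past the threshold.

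Of 18 regulators of p53 tested, 1 was higher and 3 were lower in TG at 6 h. Trp53, the gene of p53 itself, averaged 6.91 ± 0.729 CPM in TG and 9.63 ± 2.04 CPM in WT, a log2 difference of -0.48 ± 0.15 (edgeR adjusted p = 0.0381). It passed in 5 of the 12 fits that left out 1 library and missed the threshold without WT replicate 1 or 3 or TG replicate 2, 3, 4, 5 or 6, with -0.47 without TG replicate 2 (edgeR adjusted p = 0.0667). Chek2, a DNA damage kinase, averaged 6.83 ± 2.55 and 13.7 ± 4.13 CPM in TG and WT (-1.02 ± 0.28, edgeR adjusted p = 0.0241). It passed in 8 of the 12 fits and missed the threshold without WT replicate 2 or 4 or TG replicate 2 (-0.99, edgeR adjusted p = 0.0517) or 4. Daxx, a partner of MDM2 and HIPK kinases, was higher (0.30 ± 0.09, edgeR adjusted p = 0.0261), a call lost without WT replicate 1 or 2 or TG replicate 5. Trp53bp1 was lower (-0.38 ± 0.11, edgeR adjusted p = 0.0212), a call lost without WT replicate 2 (edgeR adjusted p = 0.0521) or 6 (edgeR adjusted p = 0.0556). Mdm4, the MDM2 relative that also restrains p53, had a difference of -0.19 (edgeR adjusted p = 0.209).

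Of 13 genes of the stress kinase route tested, 2 were higher and 3 lower in TG at 6 h. Map3k4, the kinase that GADD45 proteins bind, averaged 18 ± 1.92 CPM in TG and 31.3 ± 3.72 CPM in WT, a log2 difference of -0.80 ± 0.10 (edgeR adjusted p = 2.18e-05). Every TG library was below every WT library. Mapk8, the kinase JNK1, averaged 38.2 ± 1.25 and 28.4 ± 4.13 CPM in TG and WT (0.43 ± 0.09, edgeR adjusted p = 0.00307), and its activator Map2k4 42.2 ± 3.83 and 32.2 ± 3.53 CPM (0.39 ± 0.09, edgeR adjusted p = 0.00511). The p38 kinases Mapk14 (-0.20 ± 0.06, edgeR adjusted p = 0.0244) and Mapk12 (-0.39 ± 0.13, edgeR adjusted p = 0.0471) were lower. Mapk14 passed in 7 of the 12 fits that left out 1 library, missing the threshold without WT replicate 1, 5 or 6 or TG replicate 2 or 6, and Mapk12 in 4, those without WT replicate 4 or 6 or TG replicate 2 or 4. Without TG replicate 2 Mapk14 had -0.18 (edgeR adjusted p = 0.0563) and Mapk12 -0.47 (edgeR adjusted p = 0.0206). Mapk9, the kinase JNK2, had a difference of 0.01 ± 0.07 (edgeR adjusted p = 0.961) and Map2k6, which activates p38 kinases, 0.29 ± 0.31 (edgeR adjusted p = 0.614).

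Of 17 cyclins, kinases and inhibitors tested, 2 were higher and 2 lower in TG at 6 h. Ccnd1, cyclin D1, which drives entry into the cell cycle, averaged 27.2 ± 5.98 CPM in TG and 52.6 ± 11.2 CPM in WT (-0.95 ± 0.15, edgeR adjusted p = 6.85e-04), without overlap. Ccng2, the non-p53 relative of Ccng1 and known as a forkhead target, averaged 37 ± 6.57 and 24.8 ± 2.92 CPM in TG and WT (0.58 ± 0.11, edgeR adjusted p = 0.00153). Ccne2, cyclin E2, averaged 7.50 ± 0.914 and 4.26 ± 1.05 CPM (0.81 ± 0.17, edgeR adjusted p = 0.00333). Cdkn2d, the inhibitor p19INK4d, was lower (-0.30 ± 0.09, edgeR adjusted p = 0.0417), a call that held in 3 of the 12 fits (those without WT replicate 3 or 6 or TG replicate 1) and was lost without TG replicate 2 (-0.29, edgeR adjusted p = 0.0713). Fas, Ercc5, Plk2, Trp53, Chek2, Daxx, Map2k4, Mapk12, Mapk14, Cdkn2d, Bax, Phlda3, Mdm4, Mapk9, Map2k6, Ccnb1 and Perp were named after their values were seen.

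**Figure D4:**
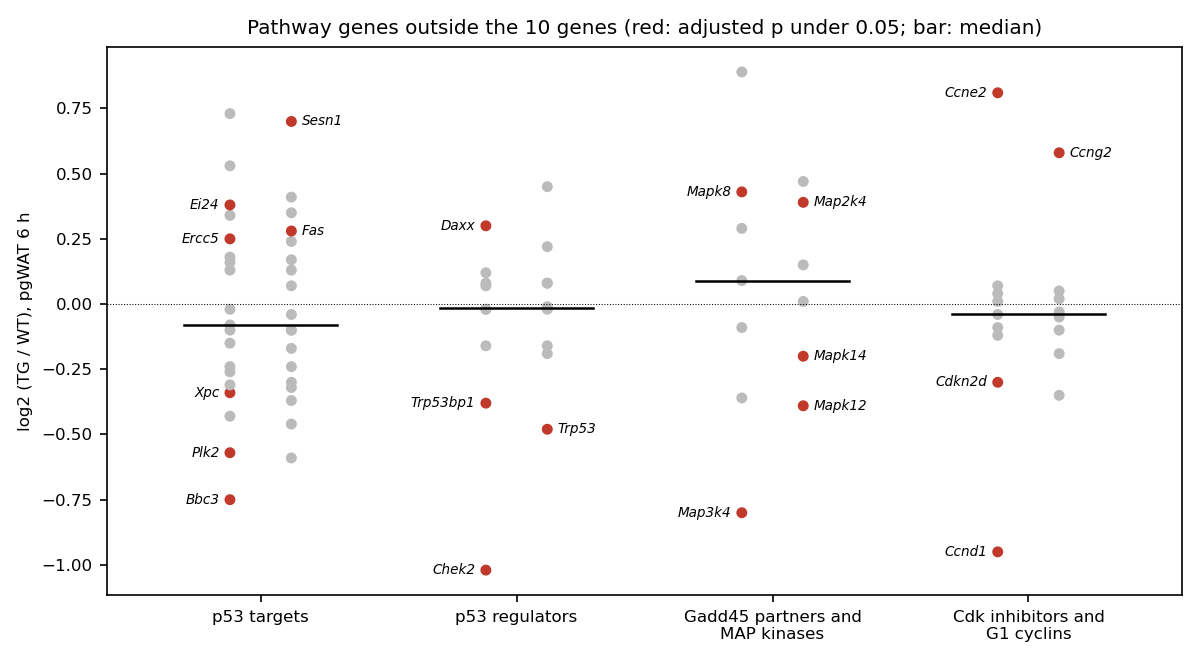
Log2 difference, TG over WT, in pgWAT at 6 h of the pathway genes outside the 10, by list; each point is a gene, red where past an edgeR adjusted p of 0.05 and grey where not, and each bar is the median of its list. The lists hold genes on both sides of 0: among red points Ccne2 (0.81) and Sesn1 (0.70) lie above and Chek2 (-1.02) and Ccnd1 (-0.95) below, and grey points reach 0.89 (Ccnb1) and 0.73 (Perp).

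The WT mice allow the 2 tissues to be compared without the genotype contrast that chose the genes, although tissue cannot be told apart from the clamp, the time after CNO and the tissue-specific extraction. Of the 10 genes, 7 differed between WT quadriceps (n = 10) and WT pgWAT at 1 h (n = 9). Over all 10319 genes tested 80.8% differed in either direction, so this count does not set the 10 genes apart. All 7 were higher in quadriceps. The share of all genes higher in quadriceps is not given here, so nothing is read from this shared direction. Gadd45g averaged 262 ± 62.4 CPM in quadriceps and 29.9 ± 9.18 CPM in pgWAT, a log2 difference of 3.13 ± 0.16 (edgeR adjusted p = 3.07e-15). Ccng1 averaged 867 ± 65.4 and 150 ± 25.6 CPM (2.53 ± 0.09, edgeR adjusted p = 1.00e-19), and Gadd45b 28.5 ± 12.7 and 5.93 ± 1.69 CPM (2.23 ± 0.23, edgeR adjusted p = 1.10e-09). All 3 paralogs were thus higher in muscle, Gadd45a by 1.52 ± 0.15 (edgeR adjusted p = 6.23e-10), and so was Mdm2, by 1.21 ± 0.10 (edgeR adjusted p = 1.76e-11). These CPM come from scaling both tissues together and so differ from those above.

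Trp53inp1 (0.43 ± 0.11, edgeR adjusted p = 5.69e-04) and Trp53inp2 (0.28 ± 0.09, edgeR adjusted p = 0.00415) were higher by less. Cdkn1a averaged 110 ± 34.7 CPM in WT quadriceps and 120 ± 32.7 CPM in WT pgWAT (-0.13 ± 0.19, edgeR adjusted p = 0.532), Hipk1 266 ± 20.7 and 258 ± 25.6 CPM (0.04 ± 0.07, edgeR adjusted p = 0.590), and Hipk2 221 ± 32.5 and 257 ± 55.3 CPM (-0.22 ± 0.13, edgeR adjusted p = 0.104). Without the libraries in doubt the difference of Cdkn1a was -0.52 (edgeR adjusted p = 0.00830) and that of Hipk2 -0.34 (edgeR adjusted p = 0.0212), both past the threshold and lower in quadriceps, while Trp53inp2, at 0.17, missed it (edgeR adjusted p = 0.124). Hipk2 also passed without WT replicate 9 of pgWAT, at -0.31 (edgeR adjusted p = 0.00309).

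**Figure D5:**
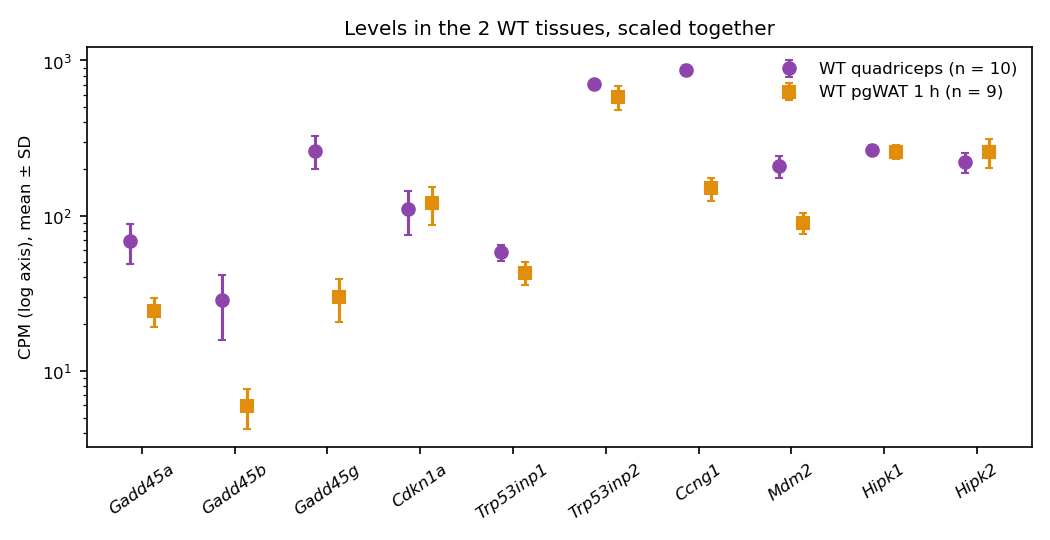
Mean level of the 10 genes in WT quadriceps (circles, n = 10) and WT pgWAT at 1 h (squares, n = 9), in CPM on a log axis with bars for the SD. Gadd45g, Gadd45b and Ccng1 lie higher in quadriceps, and the bars of Cdkn1a, Hipk1 and Hipk2 overlap.

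The genes whose levels followed each of 4 members most closely from library to library, after the genotype means were removed, were found as the highest mean Pearson correlation over the 3 sets among 7566 genes, predicted models left out. For Cdkn1a these were Anxa2 (mean r 0.69), S100a11 (0.68) and Actb (0.66), for Gadd45a Mdfic (0.68), Mpdz (0.66) and Tpm4 (0.64), for Gadd45b Hbegf (0.62), Iqgap1 (0.62) and Irf8 (0.61), and for Gadd45g Sh2b1 (0.57), Mrpl55 (0.56) and Hspb6 (0.53). Between Gadd45b and each of its paralogs the sign of r differed by set. At 1 h Gadd45b had at most 28 counts per library, so its r there rests on few reads. Gadd45a with Gadd45b had an r of 0.42 in muscle, -0.39 in fat at 1 h and 0.54 in fat at 6 h. Gadd45b with Gadd45g had 0.54, -0.44 and -0.03 in the same order of sets. For Gadd45a with Gadd45g r was positive in each set, at 0.40, 0.12 and 0.09. Cdkn1a with Gadd45a had 0.41, 0.53 and 0.61, and Cdkn1a with Gadd45b 0.60, 0.09 and 0.75. These are descriptions over 20, 18 and 12 libraries that share depth and tissue composition.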

How the data were processed

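The deposited values were raw counts per gene from 3′ mRNA sequencing (QuantSeq FWD), whole numbers without normalization. STAR 2.7.10, cutadapt 1.18, UMI-tools 1.1.2 and bcl2fastq 2.20.0.422 are listed in the submitters' processing notes, with the builds GRCm39 and GRCm38 and no roles named. The counting program, its strand setting and the collapsing of molecular identifiers are not given in the sources used here. Per the labels' protocols, quadriceps and pgWAT 1 h libraries carried molecular identifiers and pgWAT 6 h libraries used the standard kit. Rows that are not genes, a mean of 25.1% of counts in quadriceps, 34.7% at 1 h and 0.2% at 6 h, were left out.

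Groups followed the titles. TG replicate 10 of quadriceps, whose treatment entry names 1 h, was kept with the clamped mice of its title. Each set was fitted alone in edgeR 4.0.16 (R 4.3.3) with filterByExpr, TMM, a robust quasi-likelihood test and Benjamini-Hochberg adjustment over all genes tested (threshold 0.05), and tested on simulated data. WT quadriceps and WT pgWAT at 1 h were fitted together. Alternatives were DESeq2 1.42.0, RLE scaling, no filter on low counts, a replicate block, the remainder of the library number as a factor, and leaving out libraries. The 10 genes, the pathway lists and the libraries in doubt were chosen with earlier results of these data known. Named pathway genes were up to 5 with the smallest p in each direction and set among those past the threshold with at least 5 CPM, with others named after their values were seen. Counting errors apply to reads, which are not independent molecules where identifiers were not collapsed.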

Additional observations from a re-analysis of the deposited data

Results flagged for a closer look

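A library far from the rest of its group, by Dixon's test at the 95% level, was found in 11 of 60 gene and group combinations of the 10 genes. Chance gives about 1 in 20 for independent, normally distributed values. CPM of genes in shared libraries need not be such values, so no excess is read from this count. In quadriceps, Gadd45g was highest in TG replicate 2 at 406 CPM (next 317) and in WT replicate 2 at 323 CPM (next 218), the WT library with 2850 CPM of inducible heat shock transcripts. Trp53inp1 was highest in WT replicate 4 of quadriceps at 58.4 CPM (next 48.4), and Hipk2 lowest in WT replicate 6 at 115 CPM (next 164). In pgWAT at 1 h, Gadd45a was highest in TG replicate 7 at 45.4 CPM (next 33.1), Gadd45g in TG replicate 2 at 130 CPM (next 86.7) and Trp53inp1 in TG replicate 3 at 147 CPM (next 69). Ccng1 was lowest in TG replicate 9 at 111 CPM (next 164) and Gadd45b in WT replicate 8 at 2.71 CPM (next 6.57). In pgWAT at 6 h, Ccng1 was highest in TG replicate 1 at 177 CPM (next 125) and Gadd45g in WT replicate 3 at 68.2 CPM (next 34.6), still below the lowest TG library.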

How the results depend on the processing

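Of the 10 genes, 4 (quadriceps), 1 (1 h pgWAT) and 7 (6 h pgWAT) were past the threshold with DESeq2, with RLE scaling and with a replicate block as in the fit reported. At 1 h the count was 0 with no filter on low counts, with the library number remainder as a factor and without libraries in doubt. Leaving out 1 library gave 3 to 4, 0 to 1 and 6 to 8 genes. Pathway genes past the threshold at 6 h numbered 20, but 13 with no filter, 13 without the library in doubt and 12 to 19 when 1 library was left out; in quadriceps and at 1 h the count stayed at 0 in every setting run. With the replicate block these were 0, 0 and 15. Replicate numbers did not pair the libraries: same-numbered deviations correlated over 0.1 in 3 of 10, 4 of 9 and 1 of 6 pairs, and 1, 2 and 2 libraries correlated best with their own number. Between WT tissues 7 genes differed, 8 with RLE scaling, where Hipk2 passed at -0.28, and 7 to 8 with 1 library left out. Hipk1, not past the threshold between tissues, had -0.01 with DESeq2, with RLE scaling and without quadriceps WT replicate 6, and -0.01 to 0.07 over the fits with 1 library left out. The cause of these shifts was not tested. Depth limits Gadd45b in pgWAT at 1 h most, with at most 28 counts per library.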
